A study of Mus musculus with 3 samples.

Results

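Arterial endothelial cells (EC) line the vessels that carry blood into the Peyer's patches (PP), the lymphoid follicles of the small intestine. They were examined here in 3 single-cell RNA sequencing libraries of sorted mouse PP blood EC, and 433 of 11466 cells of adequate quality were arterial by a rule on their transcripts. One library came from control mice, labelled wild-type and of strain C57BL/6. The other 2 libraries, labelled replicates 1 and 2, came from EC-iCOUPOE mice of the genotype CDH5(PAC)CreERT2;COUP-TFIIOE/OE, in which tamoxifen switches on a COUP-TFII transgene (gene *Nr2f2*) in cells that express the endothelial cadherin Cdh5. Mice of both groups were 6 to 10 weeks old, and EC were isolated 14 to 19 days after tamoxifen from males and females processed together. The labels give neither the number of mice nor the day for a library.

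The rule kept cells with at least 500 genes, at least 1000 unique molecular identifiers (UMIs, each standing for 1 captured transcript) and at most 10% mitochondrial UMIs. It took blood EC as cells with at least 3 UMIs of *Pecam1*, *Cdh5*, *Egfl7*, *Emcn* and *Flt1* together, with fewer UMIs of 5 fibroblast genes than of these, and with at most 1 UMI of the lymphatic genes *Mmrn1*, *Reln* and *Prox1*. Arterial cells were blood EC with at least 5 UMIs of *Gja5*, *Bmx*, *Sema3g*, *Gja4* and *Fbln5*, of which at least 1 came from *Gja5*, *Bmx* or *Sema3g*. They also had to hold at most 1 UMI of *Selp*, *Adgrg6*, *Cytl1* and *Fxyd6* and at most 2 of *Bmp2*, *Ssu2*, *Nebl* and *Alpl*. The cells were thus chosen by their measured counts, and values of the genes in the rule are given as a description only.

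Arteries and veins are kept distinct by opposing programmes. Notch signalling, started by the ligand DLL4 and carried on by repressors such as HEY1, supports arterial and capillary identity, whereas COUP-TFII specifies veins and restrains Notch in them. In PP the addressin MAdCAM1, which lymphocytes use to home to the gut, is displayed by high endothelial venules, and the gut homeodomain factor NKX2-3 is needed for its expression. The comparison of EC-iCOUPOE with control asks what forced COUP-TFII does to EC that hold the arterial programme.

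The libraries differed in size and in make-up. The control held 6080 cell barcodes and 17341398 UMIs, EC-iCOUPOE 1 held 4959 barcodes and 17417260 UMIs, and EC-iCOUPOE 2 held 1441 barcodes and 3548983 UMIs. Of these barcodes 5473, 4750 and 1243 passed the limits on quality, and 2469, 3613 and 966 of them were blood EC. Fibroblasts made up 2510 cells of the control and 9 and 5 cells of the EC-iCOUPOE libraries. Arterial cells numbered 248 in control, 152 in EC-iCOUPOE 1 and 33 in EC-iCOUPOE 2. Their summed UMIs were 716856, 582126 and 85389, so that 1 UMI stood at 1.39, 1.72 and 11.7 CPM (counts scaled to a common total for each library). EC-iCOUPOE 2 therefore limits the precision for every gene of low level. The control and EC-iCOUPOE 2 shared 12 cell barcodes, and the other pairs of libraries shared 0. By their *Xist* and Y-linked UMIs, 170 arterial cells of the control were female and 17 male, against 37 and 50 in EC-iCOUPOE 1 and 16 and 7 in EC-iCOUPOE 2.

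Arterial cells made up a smaller part of blood EC in both EC-iCOUPOE libraries. The share was 10.0% in control (exact Clopper-Pearson 95% interval 8.89 to 11.3%). It was 4.21% (3.58 to 4.91%) in EC-iCOUPOE 1 and 3.42% (2.36 to 4.76%) in EC-iCOUPOE 2. The intervals of both EC-iCOUPOE libraries overlapped each other and lay below that of control. Because the rule counts UMIs, each cell was also thinned to 1000 UMIs before the rule was applied, which gave 3.69% (2.89 to 4.64%), 0.793% (0.503 to 1.19%) and 0.824% (0.303 to 1.79%). These intervals cover counting error only, and with 1 control library the spread of the share between control samples is unknown. A cell that lost the transcripts of the rule and a missing arterial cell cannot be told apart.

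**Figure D1:**
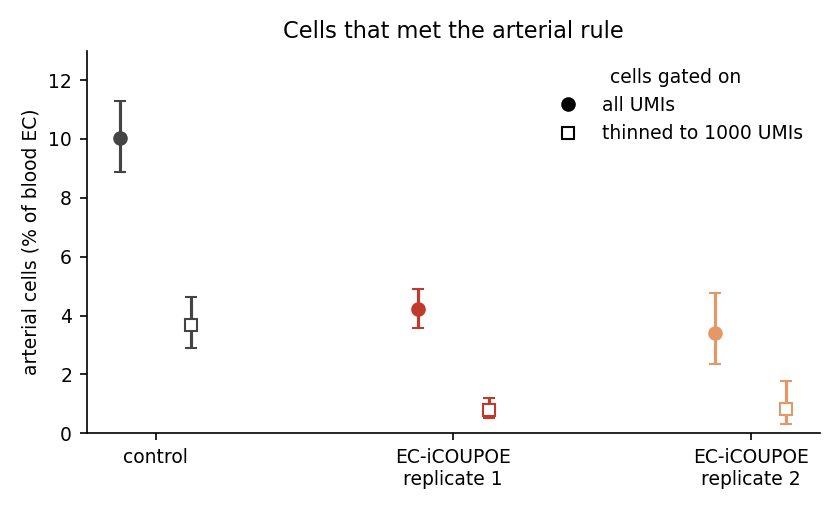
Arterial cells as percent of blood EC in each library, with exact 95% intervals (bars), by the rule on all UMIs (filled circles) and after thinning each cell to 1000 UMIs (open squares). By both counts the EC-iCOUPOE libraries lie below control (10.0% against 4.21% and 3.42% on all UMIs).

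The genes of the rule were present in the chosen cells of all 3 libraries. *Gja4* and *Gja5* encode gap junction connexins of arteries. *Gja4* stood at 1053, 682 and 1218 CPM in control, EC-iCOUPOE 1 and EC-iCOUPOE 2, and had a UMI in 89.1%, 79.6% and 87.9% of the arterial cells. *Gja5* stood at 255, 167 and 164 CPM, with a UMI in 48.4%, 48.0% and 27.3% of cells. *Fbln5*, which helps to assemble elastic fibres, had the highest level of the 5 genes in each library (1117, 1316 and 1464 CPM). The secreted semaphorin *Sema3g* (430, 196 and 480 CPM) and the tyrosine kinase *Bmx* (116, 101 and 211 CPM) completed the set. Cells just inside the limit, with 5 UMIs of these genes, numbered 40, 22 and 8, and otherwise eligible cells just outside it, with 4, numbered 44, 25 and 10. *Hey1* stood at 199, 147 and 416 CPM inside and at 332, 110 and 308 CPM outside, and *Sox17* at 634, 679 and 1662 CPM inside and at 835, 430 and 264 CPM outside. Both genes were thus higher inside than outside the limit in the EC-iCOUPOE libraries and lower inside it in control.

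A further 10 arterial genes that the rule did not use were read as a check on the name. Of these, *Efnb2*, *Hey1*, *Sox17*, *Dll4*, *Jag1*, *Cxcl12*, *Mgp* and *Eln* were higher in arterial than in other blood EC of all 3 libraries. *Hey1*, the Notch effector, exceeded its level in other blood EC by log2 1.76 in control, 2.77 in EC-iCOUPOE 1 and 1.78 in EC-iCOUPOE 2. For *Sox17*, a transcription factor of arterial specification, the differences were 1.53, 1.60 and 1.01, and for *Jag1*, a Notch ligand, 2.08, 1.49 and 1.67. *Efnb2*, the ephrin that marks arteries, was higher by 1.85 and 1.82 in the first pair of libraries and by 0.38 in EC-iCOUPOE 2, where it rested on 6 UMIs. *Mgp*, a matrix inhibitor of calcification, was higher by 1.99, 2.87 and 0.11. *Gkn3*, a secreted protein of arterial EC, was higher by 3.46 in control and by 2.51 in EC-iCOUPOE 1, where it rested on 1 UMI. *Clu* went against the name in control (log2 -1.61) and in EC-iCOUPOE 1 (-0.46), and was higher in EC-iCOUPOE 2 (0.58). Most of these genes were thus higher in the chosen cells of every library. The check was weaker in EC-iCOUPOE 2, where *Efnb2* and *Mgp* were little higher and *Gkn3* had 0 UMIs. These differences describe the chosen cells without a test.

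**Figure D2:**
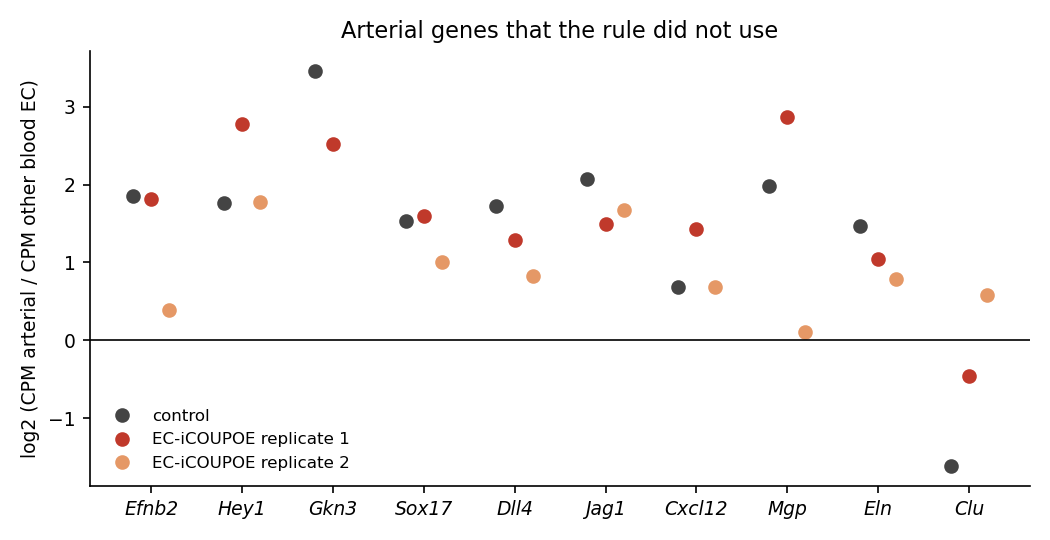
log2 ratio of the level in arterial cells to that in other blood EC of the same library, for 10 arterial genes that the rule did not use. All points lie above 0 except *Clu* in control and EC-iCOUPOE 1; *Gkn3* has no point for EC-iCOUPOE 2, where it had 0 UMIs in both kinds of cell.

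Of 245 genes with at least 50 UMIs in arterial cells of every library, *Stmn2* stood out most by the smallest of its 3 ratios. *Stmn2*, a stathmin that binds tubulin, was at 568, 893 and 808 CPM in arterial cells and at 110, 188 and 209 CPM in other blood EC. It was followed by *Plat*, the tissue plasminogen activator (log2 1.89, 2.62 and 2.07), the tetraspanin *Tspan8* (1.81, 2.57 and 2.12) and *Edn1*, the vasoconstrictor endothelin (1.67, 1.74 and 2.18). The next were *S100a6*, glutamine synthetase *Glul*, the taurine transporter *Slc6a6*, 8430408G22Rik, *Igfbp4*, the hypoxia-inducible factor *Epas1*, *Sox17*, *Vim*, *Ly6c1*, *Icam2*, *Cst3*, *Id3*, *Klf4*, *Ltbp4*, *Timp3* and *Id1*. The rank of *Id1* was 20, with log2 1.10, 0.90 and 0.66. Some of the genes are thus of vessel tone and clot lysis (*Edn1*, *Plat*), others of BMP response (*Id1*, *Id3*) and of elastic matrix (*Ltbp4*). *Ace*, which makes angiotensin, and the Wnt antagonist *Dkk2* were also higher in arterial cells of all 3 libraries (1.82, 1.54 and 1.58 for *Ace*, and 2.68, 3.39 and 3.37 for *Dkk2*).

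Small sets of the 433 cells carried transcripts of other cell types. In control, 9 cells (3.63%) held at least 10 UMIs of *Glycam1*, a sulfated ligand for L-selectin made by high endothelial venules, and 0 cells of either EC-iCOUPOE library did. These 9 cells had a median of 10064 UMIs, against 2424 over all control arterial cells. They held 98.5% of the *Glycam1*, 89.8% of the *Ccl21a*, 87.0% of the *Madcam1* and 85.3% of the *Lrg1* UMIs of control arterial cells, but 4.50% of the *Gja4* and 4.69% of the *Hey1* UMIs. In them *Madcam1* stood at 8745 CPM against 176 CPM in the other 239 control cells, and *Gja5* at 11.8 against 288 CPM. The 9 cells resemble high endothelium more than arteries in these genes. The other set comprised cells with at least 3 UMIs of the mural genes *Acta2*, *Tagln*, *Rgs5* and *Myh11*, of which there were 17 in control (6.85%), 24 in EC-iCOUPOE 1 (15.8%) and 0 in EC-iCOUPOE 2. Values are therefore also given without these cells for the genes they bear on most, a choice made after their values were seen. Of the other genes named in the text, *Timp3*, *Meox1*, *Gbp4* and *H2-Q6* were also no longer called without both sets, and *Pttg1*, *Tfe3*, *Emilin1*, *Lox*, *Vegfa* and *Ifit3* fell under 50 UMIs in every library and were not tested.

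The 12 pericyte and smooth muscle markers summed to 944 CPM in control, with *Rgs5* the most abundant at 180 UMIs, to 1977 CPM in EC-iCOUPOE 1, led by *Tagln* at 353 UMIs, and to 35.1 CPM in EC-iCOUPOE 2. The 12 fibroblast markers summed to 94.9, 191 and 35.1 CPM, with *Pdgfrb* the most abundant in control (15 UMIs) and *Lox* in EC-iCOUPOE 1 (50 UMIs). Leukocyte markers were at 0 UMIs for 11, 12 and 12 of 12 genes, and the sum was 3 UMIs in control, all of *Coro1a*. The 12 epithelial markers summed to 8.37, 48.1 and 46.8 CPM, led by *Krt19* in both EC-iCOUPOE libraries. The 10 lymphatic markers summed to 983, 218 and 164 CPM, of which *Ccl21a* gave 674 of 705, 88 of 127 and 7 of 14 UMIs. Glial markers stood at 39.1, 49.8 and 35.1 CPM, led by *Cryab* in control and EC-iCOUPOE 1, and erythrocyte markers at 5.58, 0 and 23.4 CPM.

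For the comparison with control, UMIs of each gene were summed over the arterial cells of a library, and a gene was called higher or lower when both EC-iCOUPOE libraries differed from control by at least 2-fold in the same direction. Of 2584 genes with at least 50 UMIs in arterial cells of 1 library or more, 73 were called higher and 73 lower, 2.83% in each direction. The limit of 50 UMIs was reached only outside control by 42 of the genes called higher and only in control by 62 of those called lower, so many called genes entered the comparison through the group in which they were high. Counts and shares of called genes in the lists below are therefore descriptions, set beside the 5.65% called in either direction over all genes and not read as support. The medians of all log2 ratios were -0.06 in EC-iCOUPOE 1 and -0.14 in EC-iCOUPOE 2, near 0. Counting intervals excluded 0 in both libraries for 64 of the genes called higher and for 51 of those called lower. Among the genes called lower, 67 had fewer than 10 UMIs in an EC-iCOUPOE library and 50 had a library at or below 3 UMIs, the level to which 0 was set. Of the 73 genes called higher, 54 were also called higher in the other blood EC of these libraries, and of the 73 called lower 23 were called lower there. None was called in the opposite direction there. Both comparisons use the same libraries, and the share of all genes called in other blood EC is not given. These counts are therefore descriptions and not read as support. Without the *Glycam1*-high and mural-marked cells, 56 genes were called higher and 71 lower. In cells that were not endothelial 33 of 69 genes called higher and 19 of 64 called lower were called in the same direction, although the kinds of cell in that set differed between libraries (2870 cells in control, mostly fibroblasts, and 146 and 147 in the EC-iCOUPOE libraries). The share of all genes past 2-fold in that set is not given, so these counts too are descriptions only. With 1 control library no test of the difference between genotypes could be made without assuming that control mice vary as EC-iCOUPOE mice do.

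**Figure D3:**
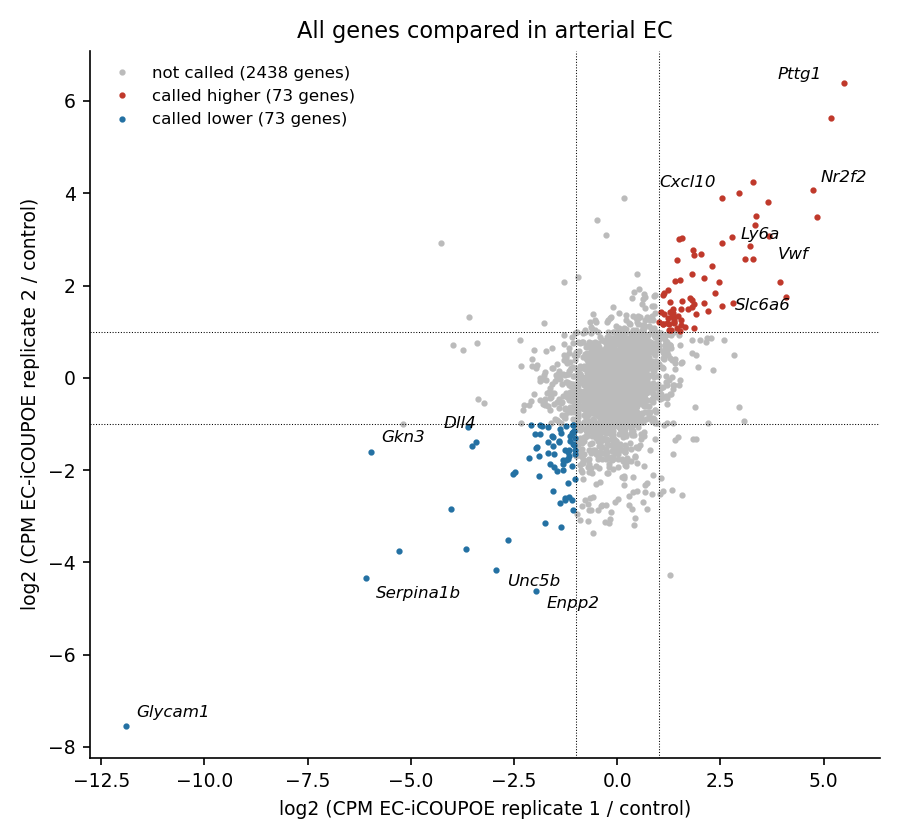
log2 ratio to control of 2584 genes in arterial EC of EC-iCOUPOE 1 (x axis) and EC-iCOUPOE 2 (y axis), with dotted lines at 2-fold. Red points are the 73 genes called higher and blue points the 73 called lower; *Nr2f2* lies at 4.73 and 4.07 and *Unc5b* at -2.93 and -4.16.

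*Nr2f2* itself (chromosome 7, 70351944 to 70366735, minus strand, GRCm38), which encodes COUP-TFII, was the check of the labels. It had 34 UMIs in control arterial cells, 733 in EC-iCOUPOE 1 and 68 in EC-iCOUPOE 2. Its level was 47.4 CPM (exact Poisson 95% interval 32.8 to 66.3) in control, 1259 (1170 to 1354) in EC-iCOUPOE 1 and 796 (618 to 1010) in EC-iCOUPOE 2. Both EC-iCOUPOE libraries lay far above control, 26.5-fold and 16.8-fold, with log2 ratios of 4.73 and 4.07 (mean 4.40 ± 0.47 SD of the 2 libraries). Mural-marked cells held 226 CPM of *Nr2f2* in control against 25.1 CPM in the rest. Without these and the *Glycam1*-high cells, *Nr2f2* had 11, 623 and 68 UMIs and log2 ratios of 6.14 and 5.35. UMIs of the transgene and of the endogenous gene cannot be told apart in these counts. For other blood EC the log2 ratios were 3.72 and 3.16, from a control level of *Nr2f2* that was higher than in arterial cells.

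After thinning to 1000 UMIs, 2.42% of control arterial cells had an *Nr2f2* UMI (interval 0.893 to 5.19%), against 59.2% (51.0 to 67.1%) in EC-iCOUPOE 1 and 42.4% (25.5 to 60.8%) in EC-iCOUPOE 2. Before thinning the shares were 8.47%, 85.5% and 63.6%, at median depths of 2424, 3318.5 and 2301 UMIs per cell. In control fibroblasts, with a median of 2746.5 UMIs per cell, 4.90% had a thinned UMI. So had 5 of 9 fibroblasts in EC-iCOUPOE 1 (55.6%, interval 21.2 to 86.3%, median 4114 UMIs per cell) and 1 of 5 in EC-iCOUPOE 2 (interval 0.505 to 71.6%, median 3977). *Nr2f2* summed over all cells that were not endothelial stood at 60.4, 659 and 515 CPM. So few fibroblasts could not have shown an excess in arterial cells. Of all cells that were not endothelial, 5.71% of 2870, 49.3% of 146 (41.0 to 57.7%) and 41.5% of 147 (33.4 to 49.9%) had a thinned *Nr2f2* UMI, at median depths of 2590.5, 2712.5 and 2604 UMIs per cell. These intervals overlapped the arterial ones in both EC-iCOUPOE libraries, so the share of cells with a UMI did not tell arterial cells from this set there. The set was defined only by few endothelial and lymphatic UMIs. Fibroblasts numbered 9 and 5 in these libraries, and its other cells were not identified. It is therefore not a measured background of cells outside endothelium.

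Of the 15 venous genes fixed as a list, 13 were tested, and *Nr2f2* and *Vwf* were called higher and *Ackr1* lower. The list's median log2 ratios were 0.69 and 0.44, against -0.06 and -0.14 over all genes. *Vwf* (chromosome 6, 125546774 to 125686679), the von Willebrand factor of platelet adhesion, had 55, 574 and 55 UMIs, or 76.7, 986 and 644 CPM. It was 12.9-fold and 8.40-fold higher (log2 3.68, interval 3.28 to 4.11, and 3.07, 2.50 to 3.64). *Vwf* had log2 ratios of 2.05 and 1.60 in other blood EC. Both arterial intervals lay above those values.

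*Ackr1*, the atypical chemokine receptor of venules, had 71 UMIs in control, 15 in EC-iCOUPOE 1 and 0 in EC-iCOUPOE 2. It was 3.84-fold lower in EC-iCOUPOE 1 and at least 2.82-fold lower in EC-iCOUPOE 2, but the 9 *Glycam1*-high cells held 53.5% of its control UMIs. Without them *Ackr1* had 33, 15 and 0 UMIs, log2 ratios of -1.02 and, as a bound, -0.57, and was too low to be tested. *Icam1*, a leukocyte adhesion molecule, differed by 0.64 and 1.81, and *Il1r1*, the interleukin 1 receptor, by 1.15 and 0.71, each past 2-fold in 1 library. *Ephb4*, the venous receptor of EFNB2, differed by 0.69 and 0.44, and *Nrp2* by 0.90 and -0.90. The 3 called genes were 23.1% of the 13 tested, against 5.65% in either direction over all genes, and 1 of them was the transgene's own *Nr2f2*. The list medians were below 2-fold in both libraries.

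Other genes called higher, chosen for mention after their values were seen, included *Slco2a1* and *Calcrl*. *Slco2a1*, a prostaglandin transporter, had 170, 629 and 55 UMIs, at 237, 1081 and 644 CPM, and log2 ratios of 2.19 and 1.44. *Calcrl*, the receptor for adrenomedullin and calcitonin gene-related peptide, had 88, 306 and 32 UMIs and ratios of 2.10 and 1.61. Ratios in other blood EC were 1.27 and 0.73 for *Slco2a1* and 1.18 and 1.06 for *Calcrl*. *Ptgs1*, the cyclooxygenase that starts prostaglandin synthesis, had 5, 69 and 2 UMIs and ratios of 4.09 and 1.75, of which the second had an interval from -1.64 to 4.36.

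The Notch list had 20 members, of which 11 were tested, and 1 was called higher and 2 lower (3 of 11, against 5.65% of all genes). All 3 had at least 50 UMIs only in the group in which they were higher. The median log2 ratios were -0.61 and -0.34, below those of all genes. Of the ligands, *Dll4* (chromosome 2, 119325784 to 119335962) had 162 UMIs in control, 44 in EC-iCOUPOE 1 and 8 in EC-iCOUPOE 2. At 226 (193 to 264), 75.6 (54.9 to 101) and 93.7 (40.5 to 185) CPM, control lay above both EC-iCOUPOE libraries without overlap of the intervals. *Dll4* was 2.99-fold and 2.41-fold lower (log2 -1.58, interval -2.10 to -1.09, and -1.27, -2.51 to -0.26). Other blood EC had log2 ratios of -1.15 and -0.37. After thinning, 23.4%, 9.21% and 12.1% of arterial cells had a *Dll4* UMI.

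*Dll1*, another Notch ligand, went the other way over all arterial cells. It had 26, 50 and 7 UMIs, at 36.3, 85.9 and 82.0 CPM, and its log2 ratios were 1.24 (0.53 to 1.99) and 1.18 (-0.27 to 2.42), so that the call rests on 7 UMIs in EC-iCOUPOE 2. Without the *Glycam1*-high cells its ratios were 1.06 and 0.99, and it was no longer called. In male cells, with 4, 16 and 1 UMIs, *Dll1* was lower (-0.56 and -0.87), and in female cells, with 20, 17 and 6, higher (1.68 and 1.73). *Jag1* had 156, 105 and 19 UMIs with ratios of -0.27 and 0.03, and *Jag2* had 90, 38 and 8 UMIs with ratios of -0.94 and -0.42. *Dll4* was thus called lower while neither *Jag1* nor *Jag2* was called, and neither *Dll4* (-0.82 and 0.13, from 6, 20 and 3 UMIs) nor *Dll1* kept its direction in both libraries of male cells.

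The receptors *Notch1* (log2 -0.25 and -0.43) and *Notch4* (-0.79 and 0.20) were not called. *Mfng*, a glycosyltransferase that modifies Notch, was called lower, with 74, 18 and 1 UMIs and ratios of -1.74 and -3.14, the second with an interval from -8.46 to -0.62. Of the targets, *Hey1* (chromosome 3, 8663359 to 8667256) had 213, 95 and 16 UMIs, at 297 (259 to 340), 163 (132 to 200) and 187 (107 to 304) CPM. Its log2 ratios were -0.86 (-1.23 to -0.51) and -0.67 (-1.50 to 0.07), below control in both libraries but short of 2-fold. The interval of EC-iCOUPOE 2 overlapped that of control. A *Hey1* UMI was found after thinning in 29% (23.5 to 35.1%), 15.8% (10.4 to 22.6%) and 18.2% (6.98 to 35.5%) of arterial cells and in 0.558% of control fibroblasts.

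In other blood EC, *Hey1* had log2 ratios of -1.87 and -0.68. Within each library, arterial cells kept more *Hey1* than other blood EC did. *Hes1* differed by -0.55 and 0.32 and *Nrarp*, a feedback inhibitor of Notch, by -0.61 and -0.28, neither past 2-fold.

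Of the 26 genes of the arterial identity list, 23 were tested, with 2 called higher (*Slc6a6* and *Eln*) and 4 called lower (*Unc5b*, *Gkn3*, *Dll4* and *Clu*). The median log2 ratios were -0.42 and -0.36, and 17 of the 23 genes were not called. The called genes were 26.1% of those tested, against 5.65% of all genes. *Unc5b* (chromosome 10, 60762593 to 60831581), the netrin receptor of arterial and tip cells, had 150, 16 and 1 UMIs. Its levels were 209 (177 to 246), 27.5 (15.7 to 44.6) and 11.7 (0.297 to 65.3) CPM. It was 7.61-fold and 17.9-fold lower (log2 -2.93, interval -3.77 to -2.18, and -4.16, -9.47 to -1.66), and control lay above both EC-iCOUPOE libraries. *Unc5b* had log2 ratios of -3.70 and -2.41 in other blood EC, and the share of arterial cells with a thinned UMI was 16.5%, 1.32% and 3.03%. *Unc5b* was thus lower in both kinds of cell.

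*Gkn3* (chromosome 6, 87383256 to 87388935) had 77 UMIs in control, spread over 21 cells, and 1 and 0 UMIs in the EC-iCOUPOE libraries. It was 62.5-fold lower in EC-iCOUPOE 1 (log2 -5.97, interval -11.29 to -3.45). By counting alone, which takes no account of UMIs held in the same cell, it was at least 3.06-fold lower in EC-iCOUPOE 2. Of these 33 cells 0 had a *Gkn3* UMI, which allows a share of cells with a UMI of up to 9.09% (3 of 33 cells; the exact 95% interval reaches 10.6%). Both limits lie above the 8.47% of control cells with a UMI before thinning, so a lower share there was not detectable with so few cells. *Clu*, a secreted chaperone, had 1170, 325 and 50 UMIs with ratios of -1.55 and -1.48. Without the *Glycam1*-high cells, which held 45.2% of its control UMIs, the ratios of *Clu* were -0.86 and -0.79, and it was no longer called.

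*Sox17*, *Stmn2* and *Tm4sf1* differed by less than 2-fold in both libraries. *Sox17* had 538, 384 and 74 UMIs, at 750 (688 to 817), 660 (595 to 729) and 867 (681 to 1088) CPM, and log2 ratios of -0.19 and 0.21. Its intervals overlapped those of control in both libraries. *Stmn2*, the leading gene of arterial cells, had 407, 520 and 69 UMIs and ratios of 0.65 (0.46 to 0.84) and 0.51 (0.12 to 0.88), above control beyond counting error. *Tm4sf1*, a tetraspanin-like protein of EC, was the most abundant list member in both EC-iCOUPOE libraries, with 1570, 1456 and 212 UMIs and ratios of 0.19 and 0.18.

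*Efnb2* had 124, 70 and 6 UMIs and ratios of -0.52 and -1.30. *Cxcl12*, the ligand of CXCR4, had ratios of -1.18 and -0.48, and *Mgp* of -0.42 and -2.25. These 3 genes were each more than 2-fold lower in 1 library only. *Slc6a6*, on the other hand, had 235, 642 and 93 UMIs, at 328, 1103 and 1089 CPM, and was higher by 1.75 and 1.73. The ratios of *Slc6a6* in other blood EC were 1.67 and 1.78, about as large.

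**Figure D4:**
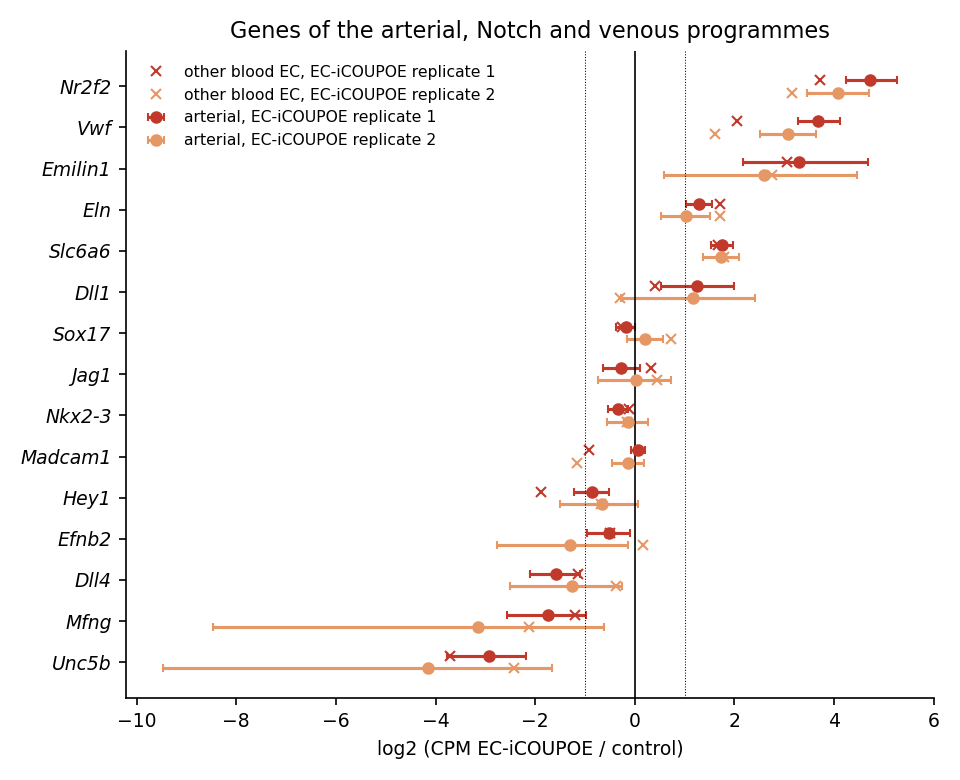
log2 ratio of each EC-iCOUPOE library to control in arterial cells (circles, with exact 95% counting intervals) and in other blood EC (crosses) for 15 genes of the arterial, Notch and venous programmes, with dotted lines at 2-fold. *Nr2f2* and *Vwf* lie furthest to the right, *Dll4*, *Mfng* and *Unc5b* to the left, and *Sox17* and *Jag1* near 0.

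Genes of elastic fibres and matrix had 13 tested members of 24, of which *Eln*, *Emilin1* and *Lox* were called higher and 0 lower (medians 0.37 and 0.47). These were 3 of 13, against 5.65% of all genes, but *Emilin1* and *Lox* reached 50 UMIs only in EC-iCOUPOE 1, and none of the 3 was called without *Glycam1*-high and mural-marked cells, where *Emilin1* and *Lox* were under 50 UMIs. *Eln* (chromosome 5, 134702593 to 134747323), the elastin of arterial walls, had 181, 360 and 44 UMIs, at 253, 618 and 515 CPM. Its log2 ratios were 1.29 (1.03 to 1.56) and 1.03 (0.52 to 1.51), and 1.71 in other blood EC of both libraries. Without *Glycam1*-high and mural-marked cells they were 1.25 and 0.88, past 2-fold in 1 library. *Emilin1*, an elastin interface protein, had 7, 56 and 5 UMIs and ratios of 3.30 and 2.58, against 3.06 and 2.76 in other blood EC. *Lox*, which crosslinks elastin and collagen, had 4, 50 and 2 UMIs, and the mural-marked cells of EC-iCOUPOE 1 held some of these (27 without them). Levels of *Ltbp4* differed by 0.62 and 0.95 and of *Sparc*, the most abundant member, by 0.27 and 0.47. *Bgn* differed by 2.27 and 0.87. The part of mural transcripts in these values was not tested for genes other than those given without mural-marked cells.

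*Madcam1* (chromosome 10, 79664559 to 79668537, plus strand) is an addressin gene whose regulatory DNA holds binding motifs for COUP-TFII and NKX2-3. Stretches of its promoter are shown because the values below concern a gene downstream of both factors. Within the 250 bases before to 50 bases after the RefSeq start (GRCm38.p6), a COUP-TFII half-site TGACCC (in capitals, 244 bases before the start) lies in chr10:79664309-79664338, plus strand, and an NKX core AAGTG (in capitals, 100 bases before the start) lies in chr10:79664447-79664476, plus strand, each with the bases around it.
*Madcam1* half-site: ccatggTGACCCacctccagcttttagctt
*Madcam1* NKX core: ctgcctcctacaAAGTGggggtcgggctgg
Of 32851 RefSeq promoters of this length, 13.7% held TGACCC (or GGGTCA, its form on the other strand) and 46.4% held AAGTG (or CACTT), and 6.56% held both. RefSeq promoters were found for 56 of the 73 genes called higher and for 58 of the 73 called lower, some with several. Of the 74 promoters of genes called higher 11 (14.9%) held TGACCC, 37 AAGTG and 8 (10.8%) both, and of 89 promoters of genes called lower 8 (8.99%), 38 (42.7%) and 4 (4.49%). For all 2670 promoters of tested genes the shares were 13.6%, 41.8% and 5.84%. A match of letters is a description and not a binding site. The marked stretches of *Madcam1* lie apart from each other, and by the promoter constructs described in the methods the composite element that binds both factors lies further upstream, outside the window shown.

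Summed over all arterial cells, *Madcam1* did not differ, with 853, 723 and 93 UMIs, at 1190 (1111 to 1273), 1242 (1153 to 1336) and 1089 (879 to 1334) CPM, and log2 ratios of 0.06 and -0.13. The control value, however, rested on the 9 *Glycam1*-high cells. In the other arterial cells *Madcam1* had 111 UMIs in control, 723 in EC-iCOUPOE 1 and 93 in EC-iCOUPOE 2, at 176, 1242 and 1089 CPM, with log2 ratios of 2.82 and 2.63. Of the 111 control UMIs, 90 were still held by 3 of the 239 cells (37, 31 and 22 UMIs). Leaving out all cells with 5 or more UMIs of *Lrg1*, *Ackr1* and *Glycam1* left 21, 354 and 33 *Madcam1* UMIs and ratios of 4.58 and 3.78. That limit took 12, 26 and 4 cells from the libraries. Without *Glycam1*-high and mural-marked cells the ratios were 2.84 and 2.48, and without mural-marked cells alone 0.17 and -0.19. *Glycam1* itself was low in EC-iCOUPOE (in other blood EC 33.0%, 2.83% and 0.107% of cells had a thinned UMI), so the limit on *Glycam1* took cells from control only, and cells of high endothelial kind without *Glycam1* would have stayed in the EC-iCOUPOE libraries. The ratios without *Glycam1*-high cells therefore do not compare like with like, and they are given as a description of the control cells. A limit of arterial UMIs of at least 0.2% of a cell gave a mean ratio of 4.46. That limit divides the genes of the rule by depth, so it falls on deep cells such as the *Glycam1*-high ones (median 10064 UMIs). It is therefore not independent of the limit on *Glycam1*, and its ratio too is a description only. Whether *Madcam1* differed thus depended on which control cells were counted. The share of arterial cells with a *Madcam1* UMI after thinning does not weigh cells by depth. It was 7.26% (4.36 to 11.2%) in control, 39.5% (31.6 to 47.7%) in EC-iCOUPOE 1 and 27.3% (13.3 to 45.5%) in EC-iCOUPOE 2. Before thinning the shares were 13.3%, 55.9% and 33.3%, and 3.59% of control fibroblasts had a thinned UMI. Control arterial cells without the 9 stood at 4.18% (2.02 to 7.56%), whose interval includes the fibroblast share. *Madcam1* transcripts were thus found in a larger share of arterial cells of EC-iCOUPOE than of control, while the sum over all cells did not differ. Of all cells that were not endothelial 4.43%, 11.6% (6.93 to 18.0%) and 21.1% (14.8 to 28.6%) had a thinned *Madcam1* UMI. The arterial share lay above that interval in EC-iCOUPOE 1, and the intervals overlapped in EC-iCOUPOE 2.

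**Figure D5:**
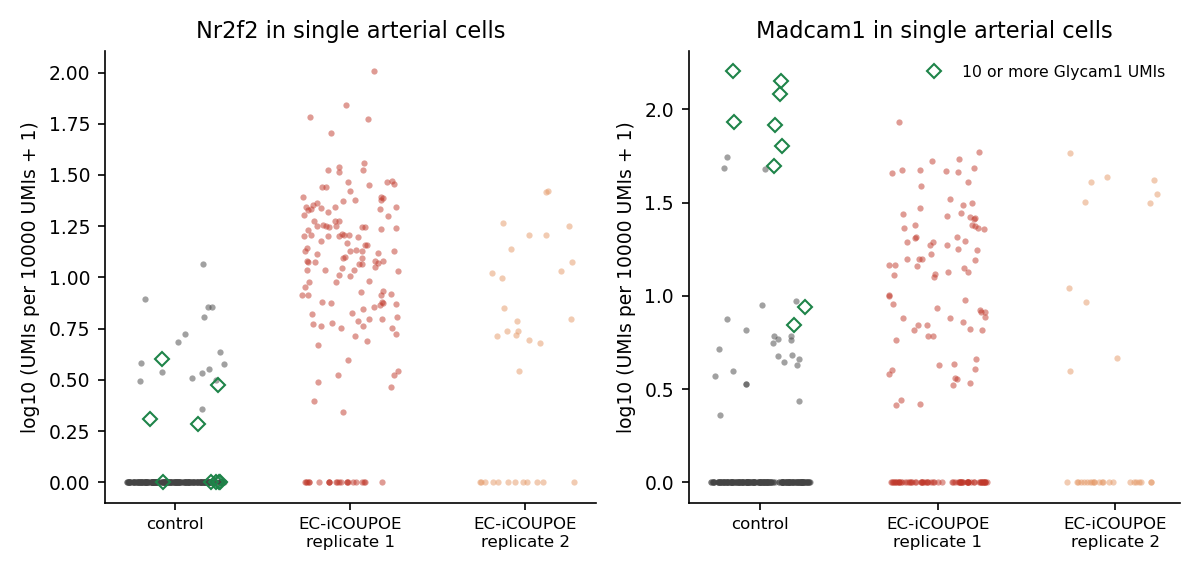
*Nr2f2* (left) and *Madcam1* (right) in single arterial cells of each library, as log10 of UMIs scaled to a common total per cell plus 1, with control cells of 10 or more *Glycam1* UMIs as green diamonds. *Madcam1* of control is highest in these diamonds, whereas EC-iCOUPOE cells with *Madcam1* are many (55.9% and 33.3% of cells with a UMI, against 13.3% in control).

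For other blood EC *Madcam1* had a lower sum in EC-iCOUPOE, with log2 ratios of -0.92 and -1.15, and its share of cells with a thinned UMI was 41.6%, 75.8% and 67.5%. There too the share was higher while the sum was not. *Nkx2-3* had 524, 339 and 57 UMIs in arterial cells, at 731, 582 and 668 CPM, and ratios of -0.33 and -0.13. Its transcript was thus found in arterial cells of all 3 libraries at a level that differed by less than 2-fold. After thinning, 52.8%, 45.4% and 33.3% of arterial cells had an *Nkx2-3* UMI. Among cells that were not endothelial 26.2%, 15.1% and 16.3% had one. In EC-iCOUPOE 2 the intervals of these shares overlapped (18.0 to 51.8% against 10.7 to 23.3%). *St6gal1*, which makes the glycan that B cells bind through CD22, had 4, 3 and 0 UMIs and was too low to compare. *Lrg1*, a secreted glycoprotein of venules, had ratios of -0.10 and -0.04 over all arterial cells. Without the *Glycam1*-high cells, which the limit took from control only, it had 77, 398 and 61 UMIs and ratios of 2.49 and 2.55.

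The list of addressin and high endothelial genes had 13 members, of which 5 were tested and *Glycam1*, *Ccl21a* and *Enpp2* were called lower (medians -1.97 and -3.52). These were 3 of 5, against 5.65% of all genes in either direction. *Glycam1* had 4688, 1 and 0 UMIs. *Ccl21a*, a chemokine that arrests lymphocytes, had 674, 88 and 7 UMIs with ratios of -2.64 and -3.52, and without the *Glycam1*-high cells of control 0.47 and -0.41. *Enpp2*, the autotaxin that makes lysophosphatidic acid, had 208, 43 and 1 UMIs with ratios of -1.97 and -4.63, and -1.33 and -3.98 without these cells. Only the call of *Enpp2* and that of *Glycam1* held among the 3 without them, *Glycam1* at 71, 1 and 0 UMIs. *Glycam1* is also abundant outside endothelium in the control, where 11.2% of fibroblasts had a thinned UMI, against 15.3% of arterial cells. Without the 9 cells the arterial share was 12.6% (8.63 to 17.4%), with at most 3 UMIs in a cell. That interval includes the fibroblast share, so the *Glycam1* that remained did not exceed the level of cells outside endothelium, and its call without the 9 cells is not read as a difference of arterial cells.

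Ranked by the less extreme of their ratios, the 10 genes most increased included *Nr2f2*, *Vwf* and *Cxcl10*, an interferon-induced chemokine. *Cxcl10* had 12, 75 and 23 UMIs and ratios of 2.94 and 4.01, against 1.51 and 2.49 in other blood EC. The others were *Pttg1* (2, 73 and 20 UMIs), *Ftl1-ps1* (18, 530 and 107), *Erh* (6, 61 and 10), *Ms4a6b* (0, 70 and 4), *Rpl29* (81, 673 and 109), *Prcp* (16, 132 and 19) and *Amigo2* (11, 87 and 25). In cells that were not endothelial the ratios were about as large for several of them, with 4.69 and 4.18 for *Ftl1-ps1*, 3.31 and 4.02 for *Rpl29*, 3.89 and 4.31 for *Pttg1*, 2.80 and 3.54 for *Erh* and 4.12 and 4.86 for *Amigo2*. *Ftl1-ps1*, a ferritin light chain pseudogene, and *Rpl29*, a ribosomal protein gene with pseudogenes, may share reads with near-identical copies and are uncertain. *Nr2f2* and *Vwf* also had large ratios there (3.45 and 3.09 for *Nr2f2*, 3.596 and 3.995 for *Vwf*). Whether these differences follow the library or the transgene was not tested.

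*Ly6a*, a surface protein of many EC and lymphocytes, was singled out after its values were seen. It had 487, 2728 and 479 UMIs, at 679, 4686 and 5610 CPM, and ratios of 2.79 and 3.05. A *Ly6a* UMI was present after thinning in 48.4%, 97.4% and 100% of arterial cells. Among cells that were not endothelial the shares were 24.9%, 19.9% and 29.9%. Other blood EC had ratios of 2.90 and 3.21, and cells that were not endothelial 0.29 and 0.55. The increase of *Ly6a* was thus large in both kinds of blood EC. Its relative *Ly6e* had ratios of 1.58 and 3.02.

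Of the 10 most decreased genes by the same ranking, *Serpina1b*, a protease inhibitor, had 506, 6 and 0 UMIs, and *Ubd*, a ubiquitin-like protein, 338, 7 and 0. *Glycam1*-high cells held 51.6% of the control UMIs of *Serpina1b* and 90.8% of those of *Ubd*. Without them *Serpina1b* had 245, 6 and 0 UMIs and was still called lower, and *Ubd* had 31, 7 and 0 UMIs, too few to be tested. The others were *Tpm3-rs7* (110, 7 and 1 UMIs), *Tfe3* (60, 3 and 1), *Prom1* (107, 15 and 3) and *Gpihbp1* (69, 10 and 2), beside *Glycam1*, *Unc5b*, *Ccl21a* and *Enpp2*. *Tfe3* is a transcription factor of lysosome genes. *Tpm3-rs7*, a tropomyosin-related sequence, is uncertain for the reason given for pseudogenes.

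*Prom1* and *Gpihbp1*, which anchors lipoprotein lipase, belong to the capillary list, of which 11 of 17 members were tested and *Sgk1* was called higher (medians -0.34 and 0.44), so that 3 of 11 were called against 5.65% of all genes. In other blood EC *Prom1* had ratios of -4.18 and -2.25, and *Gpihbp1* had -0.85 and -0.02. *Aqp1*, the water channel of EC and outside the list, was also called lower, with 322, 89 and 7 UMIs and ratios of -1.55 and -2.45. *Plvap*, the diaphragm protein of fenestrated capillaries, had 1943, 2879 and 390 UMIs and ratios of 0.87 and 0.75, short of 2-fold in both libraries. The fatty acid binding protein *Fabp4*, the most abundant member in control and EC-iCOUPOE 1, differed by 0.55 and -0.03.

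Of 10 tested members of the flow and haemostasis list, *Vwf* was called higher and *Procr*, the endothelial protein C receptor, lower (133, 51 and 7 UMIs, ratios -1.08 and -1.18). *Klf2*, the shear-stress factor and most abundant member, differed by -0.49 and 0.30, and *Thbd*, thrombomodulin, by 0.88 and 1.55. Of 10 tested vasomotor genes *Ptgs1* was called higher, and *Nos3*, endothelial nitric oxide synthase, differed by -0.53 and 0.20 and *Edn1* by 0.36 and 1.74. *F2r*, the thrombin receptor, was called lower outside these lists, with 82, 18 and 3 UMIs, and was chosen for mention after its values were seen. *Vegfa* was called higher among 7 tested genes of the VEGF, angiopoietin and apelin list, with 11, 52 and 10 UMIs and ratios of 2.54 and 2.93. In other blood EC *Vegfa* had ratios of 0.84 and 0.31, and its receptor *Kdr* differed by 0.57 and 0.20 in arterial cells. The genes called in either direction in these lists were thus 2 of 10, 1 of 10 and 1 of 7, against 5.65% of all genes tested.

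Of 18 tested endothelial transcription factors *Nr2f2* was called higher and *Meox1* lower (69, 27 and 0 UMIs), 11.1% against 5.65% of all genes and 1 of the pair the gene of the transgene. *Epas1*, the most abundant in control, differed by -0.02 in both libraries. Among 9 tested axon guidance and ephrin genes, *Unc5b* alone was called. None of the 10 tested junction genes was called, and *Cldn5*, the tight junction claudin, differed by -0.86 and -2.04. *F11r* (-1.28 and 2.07) and the connexin *Gja1* (-1.78 and 1.20) differed in opposite directions in the 2 EC-iCOUPOE libraries. None of the 11 tested genes of BMP and TGF-beta signalling was called, with medians of 0.13 and -0.14. Against 5.65% of all genes, counts of 1 of 9, 0 of 10 and 0 of 11 say nothing about these lists. *Id1* and *Id3*, the BMP targets that mark arterial cells above, differed by -0.14 and -0.53 and by 0.33 and 0.05.

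Of 14 tested interferon-stimulated genes *Cxcl10*, *Ifit3* and *Bst2* were called higher and *Gbp4* lower (medians 0.47 and 0.76), 4 of 14 against 5.65% of all genes. *Cxcl10* and *Ifit3* reached 50 UMIs only in EC-iCOUPOE 1. *Ifit3* and *Gbp4* were no longer called without *Glycam1*-high and mural-marked cells. *Bst2*, an antiviral tether, had 136, 323 and 36 UMIs and ratios of 1.55 and 1.15, and *Ifit3* had 11, 62 and 4 UMIs. In the MHC list *H2-Q4*, *H2-Q6* and *H2-T23*, nonclassical class I genes, were called higher among 9 tested genes (33.3%, against 5.65% of all genes), and the H2-Q genes may share reads with one another. *H2-D1*, the most abundant in control and EC-iCOUPOE 1, differed by -0.97 and -0.99, and *B2m*, the most abundant in EC-iCOUPOE 2, by -1.55 and 0.22. Neither of these was called.

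Among 17 tested immediate early and heat shock genes, *Fosb* was called lower (476, 183 and 28 UMIs, ratios -1.08 and -1.02), and the most abundant, *Fos*, differed by -0.28 and 0.43. The 1 called gene was 5.88% of the list, near the 5.65% of all genes. The medians of this list, -0.56 and 0.43, had opposite signs in the 2 EC-iCOUPOE libraries. In the cell cycle list 4 of 20 members reached 50 UMIs and *Stmn1* was called higher (20, 95 and 7 UMIs), having passed the limit through EC-iCOUPOE 1. This was 1 of 4, against 5.65% of all genes. Genes of division were thus mostly too low to compare. For the 6 tested pericyte and smooth muscle markers the medians were 0.97 and -2.73, and mural-marked cells numbered 24 in the first of these libraries and 0 in the second.

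Arterial cells of one library can also be set side by side by their *Nr2f2*. After thinning, 62 cells of EC-iCOUPOE 1 had 0 *Nr2f2* UMIs, 42 had 1 and 48 had 2 or more. *Madcam1* stood at 714, 1241 and 1866 CPM in these, *Slco2a1* at 670, 1173 and 1487 CPM, and *Vwf* at 784, 1044 and 1175 CPM. *Hey1* stood at 194, 166 and 125 CPM, *Gja5* at 211, 172 and 109 CPM and *Unc5b* at 39.6, 30.7 and 10.4 CPM, and *Dll4* at 79.3, 117 and 36.4 CPM. In EC-iCOUPOE 2, with 19, 8 and 6 cells, *Madcam1* stood at 365, 455 and 3331 CPM and *Hey1* at 292, 165 and 0 CPM. *Vwf* stood there at 584, 496 and 945 CPM and *Sox17* at 755, 703 and 1293 CPM, against 775, 663 and 520 CPM of *Sox17* in EC-iCOUPOE 1. *Madcam1* was highest in cells with 2 or more *Nr2f2* UMIs in both libraries, with counting intervals above those of cells with 0 (1678 to 2070 against 608 to 832 CPM, and 2582 to 4230 against 204 to 602). These intervals leave out the spread between cells, and in EC-iCOUPOE 2 the highest group was 6 cells with 67 *Madcam1* UMIs. The shares of cells with a thinned *Madcam1* UMI were 24.2%, 40.5% and 58.3%, and 15.8%, 25% and 66.7%. For *Hey1* the intervals of cells with 2 or more and with 0 *Nr2f2* UMIs overlapped (79.9 to 186 against 141 to 260 CPM, and 0 to 183 against 151 to 510), and *Sox17* went in opposite directions in the 2 libraries. *Lrg1*, of venules, was also highest in cells with 2 or more *Nr2f2* UMIs (436, 670 and 988 CPM, and 438, 413 and 1641 CPM). *Gja4* was lowest in these cells (705, 737 and 608 CPM, and 1217, 1818 and 497 CPM). *Gja5* stood at 219, 165 and 49.7 CPM in EC-iCOUPOE 2. Having 0 UMIs after thinning does not mean that a cell had none before it: the 62 cells held 149 *Nr2f2* UMIs in all (656 CPM), whereas the 242 control cells with 0 after thinning held 27 (38.9 CPM). These control cells had 76.5 CPM of *Vwf* and 211 CPM of *Unc5b*, but they were not matched to the 62 cells in *Nr2f2*. Cells of 1 library are not replicates, and no test was made.

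Because the sexes were unequally mixed, the ratios were also read within female and within male cells. *Nr2f2* had 25, 224 and 46 UMIs in female cells and 1, 227 and 11 in male cells, higher in EC-iCOUPOE in both. *Vwf* was likewise called higher in both (female 4.31 and 3.51, male 3.50 and 2.36). *Hey1* had ratios of -1.07 and -0.76 in female and of -1.20 and -0.54 in male cells. *Dll4* had 120, 1 and 3 UMIs in female cells, and 6, 20 and 3 in male cells with ratios of -0.82 and 0.13. *Madcam1* had 730, 251 and 58 UMIs in female cells, with ratios of 0.37 and -0.19, and 1, 252 and 26 UMIs in male cells. The male comparison rests on 17 control cells.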

How the data were processed

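The authors deposited a table of whole UMI counts, one value for a gene in a barcode, without normalization. By the methods and labels, the 10x Chromium platform was used and reads were aligned to the mm10 transcriptome with Cell Ranger 3.0.2. The file headers name 3.0.2 for the control and EC-iCOUPOE 2 and 3.1.0 for EC-iCOUPOE 1.

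The analysis used pandas 2.3.3, scipy 1.17.1, numpy 2.4.6 and matplotlib 3.10.9 under Python 3.11.15. Cells were chosen by the rule given above. Doublets, called with Scrublet in scanpy 1.11.5 at an expected rate of 6%, numbered 132, 46 and 4 (1, 1 and 0 of them arterial) and were kept. UMIs were summed per library and gene. A gene at 0 UMIs in 1 library was set to 3 UMIs and its fold given as a bound. Sex-linked genes (*Xist*, *Tsix* and 4 Y-linked genes) and mitochondrially encoded genes were left out of the comparison. Intervals are at 95%, exact, and cover counting error only. Ratios were conditioned on the sum of both counts. Fibroblasts had at least 5 UMIs of *Col1a1*, *Col1a2*, *Dcn*, *Pdgfra* and *Lum*. Cells that were not endothelial had fewer than 3 UMIs of the endothelial genes of the rule and at most 1 of its lymphatic genes. They were not identified further. The labels do not say whether the 2 EC-iCOUPOE libraries came from separate mice.

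Genes named were mainly those of the rule, called or abundant members of 24 lists, the 10 most increased and 10 most decreased, and 20 leading arterial genes. Other list members and some genes outside the lists were named too, some of them after their values were seen. The cells, lists and members were chosen with earlier results of these data known. Because there was 1 control library, no p-value entered the result. Quasi-likelihood tests in edgeR 4.0.16 and Wald tests in DESeq2 1.42.0 (R 4.3.3), with Benjamini-Hochberg adjustment, were alternatives. Coordinates are from GENCODE on GRCm38, the assembly of mm10.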

Additional observations from a re-analysis of the deposited data

Results flagged for a closer look

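*Selenom*, a selenoprotein of the endoplasmic reticulum, was called higher in EC-iCOUPOE but differed in direction between the sexes. Its mean log2 ratio was 1.36 in female arterial cells (1.02 and 1.69) and -0.28 in male cells (-0.12 and -0.45), and the difference was not tested. *Jup*, the junction protein plakoglobin, was called lower in arterial cells with a mean log2 ratio of -1.37 (-1.17 and -1.57, from 50, 18 and 2 UMIs), while other blood EC had 0.67 (0.12 and 1.22). The difference between arterial and other blood EC was not tested.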

How the results depend on the processing

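No paired analysis was possible because there was 1 control library and the labels record no pairing of libraries. The counts of 73 genes called higher and 73 called lower moved with the settings. Either EC-iCOUPOE library alone gave 143 to 171 higher and 216 to 361 lower. With at least 20 UMIs the counts were 137 and 154, and with at least 100 they were 36 and 28. The rule applied after thinning gave 7 and 11, male cells 35 and 8, female cells 34 higher, at least 8 arterial UMIs 34 lower, and arterial UMIs of at least 0.2% of a cell 41 higher. In edgeR, with the control assumed to vary as the EC-iCOUPOE libraries do, 0 genes were higher and 1 (*Glycam1*) lower at adjusted p under 0.05, and 85 and 40 at unadjusted p under 0.05. DESeq2 called 9 and 4 (unadjusted 47 and 13). *Nr2f2* had adjusted p = 0.24 in edgeR and 3.18e-07 in DESeq2. Of the 146 called genes, 132 stayed called under either TMM or median-of-ratios scaling, which moved all log2 ratios by 0.05 in both cases in EC-iCOUPOE 1 and by 0.14 in EC-iCOUPOE 2. Without *Glycam1*-high and mural-marked cells, a choice made after seeing the data, 94 of 143 stayed called. Of the called genes with a value, 6 of 87 stayed called after thinning, 16 of 67 in male and 57 of 146 in female cells, 56 of 134 with at least 8 arterial UMIs and 68 of 139 at 0.2%.

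The arterial share was 11.8% of control blood EC with at least 4 UMIs. With at least 8 UMIs it was 4.86%, 2.63% and 1.24% in control, EC-iCOUPOE 1 and EC-iCOUPOE 2, and after thinning 3.69%, 0.793% and 0.824%. Without the limits on venous and other genes it was 13.6% in control and 6.48% in EC-iCOUPOE 1. The mean log2 ratio of *Nr2f2* (4.40) was 5.01 with at least 8 UMIs, 5.82 after thinning, 4.93 in male cells, 5.38 without mural-marked cells, 5.74 without these and *Glycam1*-high cells, 5.65 at 0.2% and 4.94 as a mean over cells. That of *Hey1* (-0.76) was -0.94 with at least 8 UMIs, -1.23 without the limits, -1.14 after thinning and -0.91 in female cells. That of *Madcam1* (-0.03) was -0.60 without the limits, 2.63 after thinning, 5.63 in male cells, 2.73 without *Glycam1*-high cells, 2.66 without mural-marked cells too, 4.18 without cells with 5 or more UMIs of *Lrg1*, *Ackr1* and *Glycam1*, 4.46 at 0.2% and 1.33 as a mean over cells. The median of the arterial identity list (-0.39) was -0.44 and -0.29 with at least 4 and 8 UMIs, -0.34 both without the limits and after thinning, -0.54 in female and -0.12 in male cells, -0.49 without *Glycam1*-high, -0.47 without mural-marked and -0.56 without either kind of cell, -0.25 at 0.2%, -0.29 by TMM, -0.30 by median of ratios and -0.50 as a mean over cells. The Notch median (-0.47) was -1.04 in female cells and -0.68 without both kinds of cell. Signs turned for *Ccl21a* (1.14 after thinning, 0.028 without *Glycam1*-high cells and 0.076 without mural-marked cells too), for *Gpr146* (0.86) and *Arf3* (0.22) after thinning, and in male cells for *Dll1* (-0.71), *Selenom* (-0.28), *Med10* (-0.48) and *Pdia5* (-0.21). Where the number of cells or genes did not change, the cause of a shift was not tested.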

Other observations

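*Gkn3* was found in 21 of the 248 control arterial cells. Relative to the other control arterial cells, these 21 cells had 517 against 231 CPM of *Gja5*, 2335 against 516 CPM of *Mgp* and 500 against 230 CPM of *Eln*. Other arterial genes went both ways in them. Higher were *Ltbp4* (850 against 440 CPM), *Dll4* (334 against 216), *Bmx* (200 against 108), *Sox17* (850 against 741) and *Fbln5* (1284 against 1102). Lower were *Cxcl12* (467 against 741 CPM), *Gja4* (800 against 1076), *Sema3g* (367 against 435) and *Hey1* (267 against 300). Among these, only *Ltbp4* and *Cxcl12* had counting intervals that did not overlap. Mural genes went both ways too, with *Tagln* higher (467 against 180 CPM) and *Rgs5* lower (100 against 265 CPM). *Acta2* stood at 334 against 218 CPM, with overlapping intervals. The 21 cells were grouped after the data were seen, and no test was made. CreERT2 and TdTomato were features of the control and EC-iCOUPOE 2 tables and had 0 UMIs in arterial cells of both.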
